A study of Mus musculus with 8 samples.

Results

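The secondary and tertiary granule genes described here are 10 of the 15566 mouse genes in the deposited table of counts, found by their gene names: Ltf, Camp, Ngp, Lcn2, Chil3, Fcnb, Hp, Slpi, Mmp8 and Mmp25. All 10 were in the table, and all 10 passed the filter on low counts. Messenger RNA was sequenced in 4 LysMDCommd10 libraries and 4 Commd10fl/fl libraries of male C57BL/6 mice, 8 weeks old and kept without treatment. Below, the LysMDCommd10 libraries are called deficient 1 to 4 and their weight-matched littermates control 1 to 4. Both groups carry the floxed Commd10 gene, which encodes a subunit of the Commander complex, a sorter of membrane proteins at endosomes, and only the LysMDCommd10 mice also carry the LysM-driven Cre recombinase. LysM-Cre acts in monocytes, macrophages and neutrophils, and it is inserted in Lyz2, a lysozyme gene. The cells came from femur and tibia and were sorted as living, CD45+, CD11b+, CD115+, Ly6C-high cells without Ly6G or CD117, a gate for classical monocytes that leaves out neutrophils and progenitors. Nothing in the labels says which animals or litters gave which library, so the p-values here rest on the differences among these libraries, part of which may be technical. The running numbers in the sample titles are higher in every deficient library than in every control, and if they mark an order of handling, it cannot be told apart from genotype.

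Neutrophils make their granules in waves. Primary granules form first, secondary (specific) granules follow at the myelocyte stage and tertiary (gelatinase) granules come later, and each protein goes to the granule type that is being made when its gene is active. C/EBP transcription factors, above all C/EBP epsilon, switch on many of the genes of secondary granules. Monocytes make few of these proteins, but some of the genes, among them Chil3 and Mmp8, are known to be active in a neutrophil-like subset of mouse marrow monocytes.

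The libraries held 17099454 to 30722262 counts in the deficient group and 14231121 to 31040255 in the controls, so that 1 count stood for 0.0325 to 0.0585 CPM (counts per 1000000, scaled with edgeR's TMM factors) in deficient libraries and 0.0324 to 0.0703 CPM in controls. Commd10 was at 21.3 ± 2.17 CPM in the deficient libraries and 29.2 ± 1.46 CPM in the controls (SD, n = 4 each; adjusted p = 0.0292, edgeR quasi-likelihood test). The Cre transcript had 499 to 987 counts in deficient libraries and 0 in each control. The 10 classical monocyte markers summed to 19733 to 20681 CPM in deficient libraries and 20263 to 21430.2 CPM in controls. Ly6g, the antigen of neutrophils that the gate excludes, had 7 to 13 counts in deficient libraries and 0 to 10 in controls. Kit, which encodes CD117, had 3 to 12 counts in deficient libraries and 3 to 8 in controls.

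The sequences before the start sites of 6 of these genes are shown because their expression fell into 2 patterns across libraries, described further on: Ltf, Camp and Ngp in one, Lcn2, Fcnb and Mmp8 in the other. RefSeq's promoter table (GRCm38.p6) held 9 of the 10 genes, all but Hp. Its starts differ from those of the GENCODE gene spans given further on. By those spans, the windows of Lcn2 and Slpi lie inside the gene, and those of Camp, Ngp and Ltf overlap its start. Each line gives the 250 bases before the RefSeq start, 5′ to 3′. Capitals mark the 8-letter C/EBP word TTNNGCAA or its reverse complement TTGCNNAA.
Ltf (chr9:111019042-111019291, plus strand): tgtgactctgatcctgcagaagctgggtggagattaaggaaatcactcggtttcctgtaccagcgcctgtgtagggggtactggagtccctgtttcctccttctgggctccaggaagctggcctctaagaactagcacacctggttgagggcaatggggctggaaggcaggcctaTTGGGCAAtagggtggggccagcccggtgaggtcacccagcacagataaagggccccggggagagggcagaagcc
Camp (chr9:109849457-109849706, minus strand): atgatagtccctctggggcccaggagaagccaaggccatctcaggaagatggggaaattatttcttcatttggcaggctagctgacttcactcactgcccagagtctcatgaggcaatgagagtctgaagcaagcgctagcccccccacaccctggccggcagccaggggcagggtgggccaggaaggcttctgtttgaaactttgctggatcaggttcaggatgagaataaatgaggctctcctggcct
Ngp (chr9:110419558-110419807, plus strand): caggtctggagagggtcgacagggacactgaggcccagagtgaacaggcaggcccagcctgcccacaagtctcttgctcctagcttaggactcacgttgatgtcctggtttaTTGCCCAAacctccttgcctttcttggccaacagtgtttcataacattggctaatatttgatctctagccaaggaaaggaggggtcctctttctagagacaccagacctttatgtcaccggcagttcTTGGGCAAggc
Lcn2 (chr2:32387740-32387989, minus strand): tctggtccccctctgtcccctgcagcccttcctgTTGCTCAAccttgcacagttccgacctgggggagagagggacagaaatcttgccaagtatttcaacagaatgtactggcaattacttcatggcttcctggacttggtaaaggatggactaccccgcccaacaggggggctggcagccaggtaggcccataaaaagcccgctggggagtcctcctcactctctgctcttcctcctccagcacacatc
Fcnb (chr2:28084879-28085128, minus strand): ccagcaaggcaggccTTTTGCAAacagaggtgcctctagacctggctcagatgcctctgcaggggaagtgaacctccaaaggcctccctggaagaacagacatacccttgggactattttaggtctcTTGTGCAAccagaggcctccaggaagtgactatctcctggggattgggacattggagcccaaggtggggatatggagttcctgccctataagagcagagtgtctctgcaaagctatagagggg
Mmp8 (chr9:7558179-7558428, plus strand): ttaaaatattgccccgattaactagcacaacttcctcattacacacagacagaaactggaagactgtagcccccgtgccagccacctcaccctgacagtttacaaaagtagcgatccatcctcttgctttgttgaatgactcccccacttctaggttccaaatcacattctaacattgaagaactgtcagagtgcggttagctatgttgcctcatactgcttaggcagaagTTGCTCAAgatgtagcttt

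The word was found on either strand in 6 of the 9 promoters: those of Ltf, Ngp, Lcn2, Fcnb, Mmp8 and Slpi. Of all 32851 promoters of the same length, 9.56% held it. Camp, Chil3 and Mmp25 had no match in these windows. Both patterns of expression thus include genes with the word, and the matches are a description of the letters, not of binding. A second word, the PU.1-type GAGGAAG or its reverse complement CTTCCTC, was in 3 of the 9 promoters (Lcn2, Mmp8 and Mmp25) and in 10.6% of all. It did not overlap the C/EBP word in any of these windows.

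The 10 genes differed in level by 3 orders of magnitude, which was compared per kilobase of each gene's principal transcript. Chil3 was the most abundant, at 1432 ± 313 CPM per kilobase in deficient libraries and 1005 ± 141 in controls (SD, n = 4 each), and was the 27th gene of the table by mean CPM. Hp followed at 818 ± 111 CPM per kilobase in deficient libraries and 630 ± 62.1 in controls. Together these 2 genes gave 83.3% to 85.8% of the counts of all 10 in deficient libraries and 82.6% to 85.4% in controls. Mmp8 (136 ± 30.2 CPM per kilobase in deficient libraries, 101 ± 9.86 in controls) and Slpi (110.5 ± 12.8 in deficient libraries, 89.9 ± 5.64 in controls) came next and overlapped each other in both groups. Lcn2 spread over the range from Slpi to Fcnb, at 99.1 ± 46.6 CPM per kilobase in deficient libraries and 52.2 ± 20.5 in controls. It overlapped Slpi in the deficient group and Fcnb in the control group.

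The lower end of that order held Fcnb, Ngp, Camp, Ltf and Mmp25. Fcnb was at 42.6 ± 2.38 CPM per kilobase in deficient libraries and 37.3 ± 5.52 in controls, and Ngp at 24.3 ± 7.28 in deficient libraries and 22.3 ± 5.66 in controls, with no overlap between these 2 genes within a group. Camp, at 7.20 ± 2.69 CPM per kilobase in deficient libraries and 6.63 ± 2.04 in controls, overlapped Ltf, at 4.90 ± 1.18 in deficient libraries and 3.97 ± 1.10 in controls. Mmp25 was the lowest, at 1.16 ± 0.270 CPM per kilobase in deficient libraries and 0.739 ± 0.0526 in controls. Every other pair of neighbours in the order was separate in both groups.

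**Figure D1:**
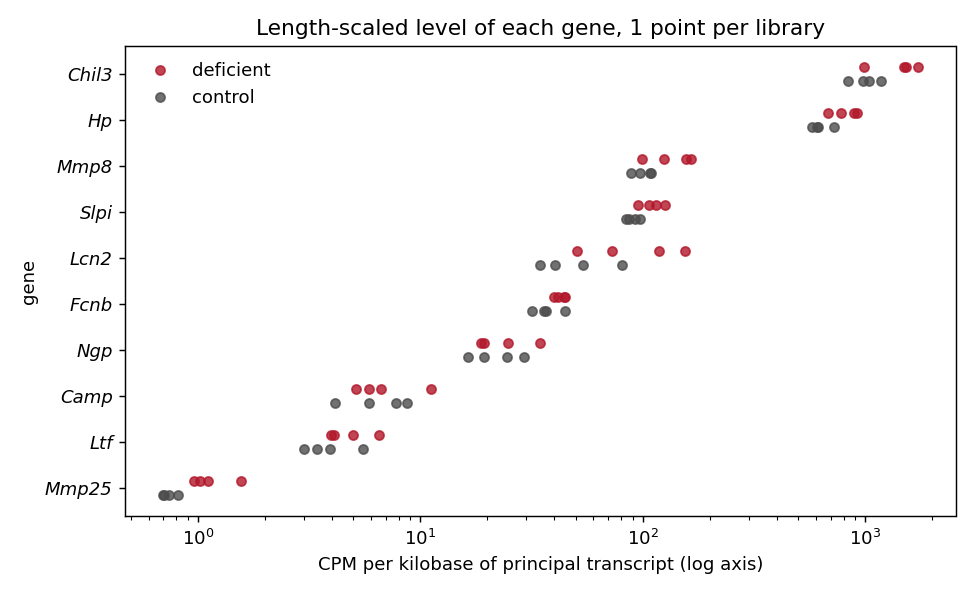
Level of each gene in CPM per kilobase of its principal transcript (log axis), 1 point per library, deficient in red above control in grey. Chil3 and Hp stand apart at the top, Camp, Ltf and Mmp25 at the bottom, and the 4 points of a group spread widest for Lcn2.

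The comparison of genotypes asks whether COMMD10-deficient monocytes express more of the neutrophil programme, the subject of the series' title. All 10 genes had a fold change above 1 in the deficient libraries, as did 50.2% of the 12938 genes tested. None of the 10 passed an adjusted p of 0.05 (edgeR quasi-likelihood test, Benjamini-Hochberg over all genes), where 0.873% of all genes did, 0.356% as higher and 0.518% as lower in deficient libraries. At an unadjusted p under 0.05, 5 of the 10 were higher, against 11.9% of all genes tested, and DESeq2 called 3 of the 10 at an adjusted p under 0.05, against 3.05% of all. In either direction, 3100 of the 12938 genes had an unadjusted p under 0.05 in edgeR. That share is the one to set beside such counts for the gene lists below, which ignore direction. DESeq2 called 843 of the 12938 genes (6.52%) in either direction, 395 higher and 448 lower. Its counts for the lists are to be set beside these. The median log2 fold change of the 10 was 0.34, beside 0.000719 over all genes. Those that came nearest to the threshold were Mmp25, Slpi and Hp. In bulk RNA, more cells of a granule-rich type and more granule RNA per cell cannot be told apart.

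The iron-binding and antimicrobial proteins of secondary granules come first. Ltf encodes lactoferrin, which binds iron (ENSMUSG00000032496, GRCm38 chromosome 9, 111019271 to 111042767, plus strand). It was at 11.2, 13.6, 10.9 and 17.9 CPM in deficient 1 to 4 and at 8.24, 9.38, 10.8 and 15.1 CPM in control 1 to 4. The groups overlapped, because control 4 exceeded 3 of the deficient libraries. On the log2 scale the fold change was 0.30, with an SE of 0.23 and an adjusted p of 0.445. It was 0.13 without deficient 4, 0.18 without control 1 and 0.52 without control 4.

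Camp encodes the cathelicidin whose processed peptide is CRAMP, and had the smallest counts of the 4 genes of this group (ENSMUSG00000038357, chromosome 9, 109847379 to 109849617, minus strand). Its counts were 120, 152, 76 and 252 in deficient 1 to 4 and 80, 99, 94 and 182 in control 1 to 4, or 3.90, 5.06, 4.44 and 8.43 CPM against 3.12, 4.47, 6.61 and 5.90 CPM. Deficient 4 was the highest library, followed by control 3 and control 4. The log2 fold change of 0.15 was smaller than its error (SE 0.30, adjusted p = 0.793), and it turned to -0.15 without deficient 4 and to -0.03 without control 1.

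Ngp encodes the neutrophilic granule protein, a relative of the cathelicidins (ENSMUSG00000032484, chromosome 9, 110419747 to 110423012, plus strand). It was at 23.7, 30.2, 22.9 and 42.2 CPM in deficient 1 to 4 and at 20.0, 23.6, 29.9 and 35.7 CPM in control 1 to 4. Both groups had their highest value in library 4, control 4 lay above 3 of the deficient libraries and control 3 above 2. At 0.13 (SE 0.26, adjusted p = 0.795), its log2 fold change was smaller than its error, and it was -0.087 without deficient 4.

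Lcn2 encodes the lipocalin that binds bacterial siderophores and so withholds iron (ENSMUSG00000026822, chromosome 2, 32384633 to 32388252, minus strand). It was at 66.6, 142, 46.5 and 108 CPM in deficient 1 to 4 and at 73.5, 49.4, 36.7 and 31.5 CPM in control 1 to 4. Deficient 2 and 4 lay above every control, while deficient 1 and 3 lay below control 1. This was the largest fold change of the 10 genes, and it had the largest SE: log2 0.93 with an SE of 0.43 (adjusted p = 0.253). Within the deficient group alone the highest library had 3.05 times the level of the lowest, more than the 1.90-fold difference between the group levels in the fit.

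**Figure D2:**
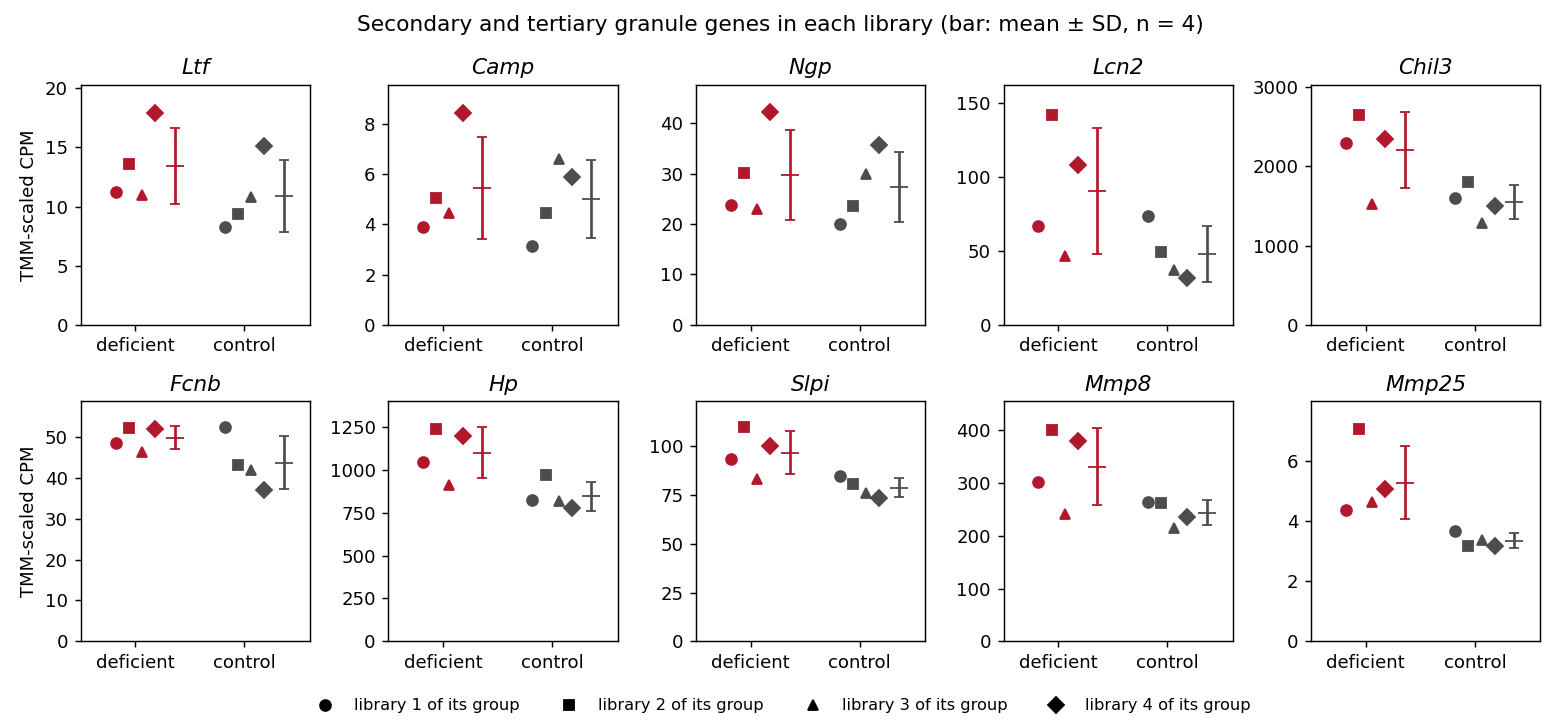
TMM-scaled CPM of each gene in every library, with deficient (red) left of control (grey), 1 marker shape per library number and the mean ± SD of 4 libraries beside the points. Only for Mmp25 do all 4 deficient points lie above all 4 control points.

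The genes of lectins and plasma-type proteins come next, among them the most abundant, Chil3 and Hp. Chil3 encodes Ym1, a chitinase-like lectin (ENSMUSG00000040809, chromosome 3, 106147554 to 106167564, minus strand). It was at 2293, 2649, 1521 and 2350.3 CPM in deficient 1 to 4 and at 1598, 1807, 1285 and 1498 CPM in control 1 to 4. Deficient 1, 2 and 4 exceeded every control, and deficient 3 lay below control 1 and control 2. The level was 1.42-fold higher in the fit (log2 0.51, SE 0.18, adjusted p = 0.158). The paralog Chil4, close to Chil3 in sequence, had 1 to 14 counts in deficient libraries and 3 to 13 in controls. How reads that match both genes were assigned is not given, so both values are uncertain to that extent.

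Fcnb encodes ficolin B, a lectin that recognises microbial sugars (ENSMUSG00000026835, chromosome 2, 28076378 to 28084885, minus strand). It was the steadiest of the 10 genes in the deficient group, at 48.6, 52.2, 46.4 and 51.9 CPM in deficient 1 to 4 and at 52.5, 43.1, 42.0 and 37.1 CPM in control 1 to 4. Control 1 was above all 4 deficient libraries, and the other controls were below them. Fcnb thus differed by 0.19 on the log2 scale (SE 0.09, adjusted p = 0.234), and by 0.29 without control 1 and 0.12 without control 4.

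Hp encodes haptoglobin, which captures free haemoglobin (ENSMUSG00000031722, chromosome 8, 109575128 to 109579172, minus strand). It was at 1045, 1241, 915 and 1198 CPM in deficient 1 to 4 and at 823, 968, 819 and 777 CPM in control 1 to 4. Deficient 3 below control 2 was the only crossing of the groups. The log2 fold change was 0.38 (SE 0.10, adjusted p = 0.0889).

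Genes of matrix metalloproteinases and of a protease inhibitor come last. Mmp8 encodes neutrophil collagenase (ENSMUSG00000005800, chromosome 9, 7558456 to 7568485, plus strand). It was at 302, 400.2, 241 and 379.9 CPM in deficient 1 to 4 and at 265, 262, 215 and 235 CPM in control 1 to 4. Again deficient 3 was the one library inside the range of the controls. Its level was 1.36-fold higher in the fit (log2 0.44, SE 0.16, adjusted p = 0.165).

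Mmp25 encodes a membrane-anchored matrix metalloproteinase, also called leukolysin (ENSMUSG00000023903, chromosome 17, 23628311 to 23645277, minus strand). Its counts were 134, 212, 79 and 151 in deficient 1 to 4 and 94, 70, 48 and 98 in control 1 to 4, or 4.36, 7.05, 4.62 and 5.05 CPM against 3.67, 3.16, 3.37 and 3.18 CPM. The groups did not overlap, which in the direction of higher deficient libraries held for 5.93% of all genes tested. The log2 fold change was 0.66 (SE 0.16), the largest relative to its error of the 10, and the adjusted p was 0.0600. The annotation places 2 processed pseudogenes on the other strand inside Mmp25, and since the counting is not stated to use strand, their reads could not be told apart.

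Slpi encodes the secretory leukocyte protease inhibitor, which blocks neutrophil elastase and cathepsin G (ENSMUSG00000017002, chromosome 2, 164354070 to 164389095, minus strand). It was at 93.7, 110.0, 83.4 and 100.1 CPM in deficient 1 to 4 and at 84.6, 80.7, 75.9 and 73.6 CPM in control 1 to 4. Only deficient 3 and control 1 crossed, by little more than 1 CPM. In the fit Slpi was 1.23-fold higher (log2 0.30, SE 0.08, adjusted p = 0.0736).

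With DESeq2 in place of edgeR, those 3 were Mmp25 (adjusted p = 0.0122), Slpi (0.0136) and Hp (0.00625). Without deficient 3, the shallowest library of its group, 5 of the 10 passed in edgeR: Hp and Slpi (both adjusted p = 0.0267), Chil3 (0.0308), Mmp8 (0.0366) and Mmp25 (0.0436). In that fit 1.70% of all genes were called higher, against 0.356% with all libraries. Without deficient 1, Mmp25 alone passed (adjusted p = 0.0378), with 1.62% of all genes called higher. None of the 10 passed in edgeR when any of the other 6 libraries was left out, or when deficient 3 was left out together with control 3, the shallowest control.

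**Figure D3:**
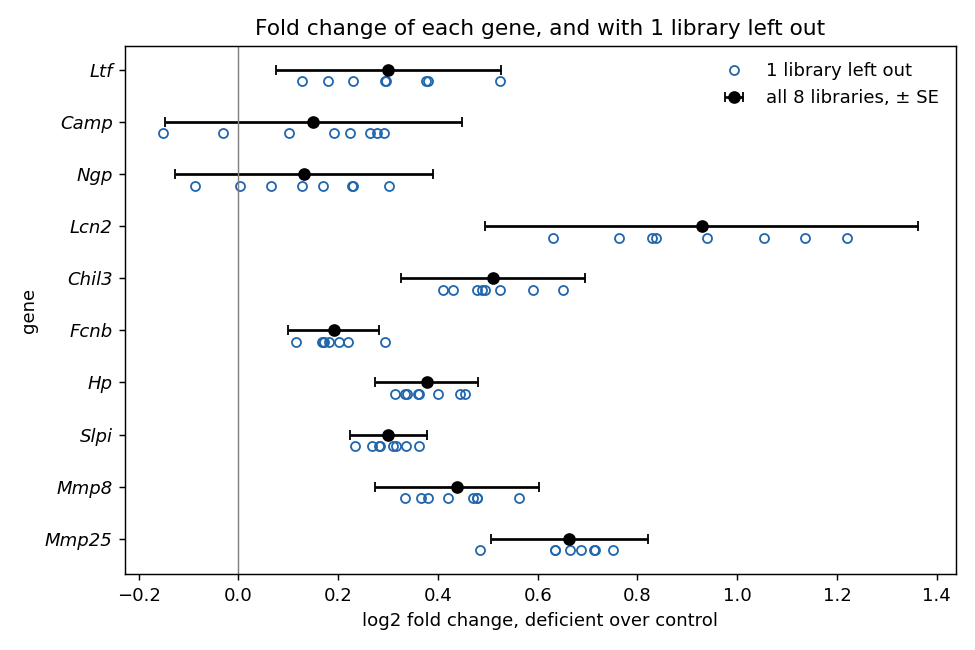
Log2 fold change of each gene, deficient over control, with all 8 libraries (black, ± SE) and with each library left out in turn (open blue circles). The circles of Camp and Ngp fall on both sides of 0, and those of the other 8 genes stay above it.

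Across libraries the 10 genes did not follow one order. Lcn2, Chil3, Hp, Slpi, Mmp8 and Mmp25 had their highest value in deficient 2, whereas Ltf, Camp and Ngp had theirs in deficient 4. The clearest contrast was in control 4. There Ltf, Ngp and Camp lay 0.34, 0.36 and 0.21 above their own means over 8 libraries on the log2 scale, while Lcn2, Fcnb, Hp and Slpi had their lowest value of all libraries, at -0.95, -0.32, -0.30 and -0.24. In control 1, Ltf, Camp and Ngp had their lowest values (-0.50, -0.61 and -0.46). Of the other 7 genes, Lcn2 and Fcnb were above their means there (0.26 and 0.18), and Hp, Chil3, Mmp25, Mmp8 and Slpi were below theirs, by less than the trio (-0.22 for Hp to -0.04 for Slpi). Ltf, Camp and Ngp together summed to 38.8, 48.8, 38.3 and 68.5 CPM in deficient 1 to 4 and to 31.4, 37.4, 47.3 and 56.7 CPM in control 1 to 4. The fold changes of these 3 genes had a median of 0.15 on the log2 scale, beside 0.44 for the other 7. This grouping was chosen after the values were seen and was not tested.

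**Figure D4:**
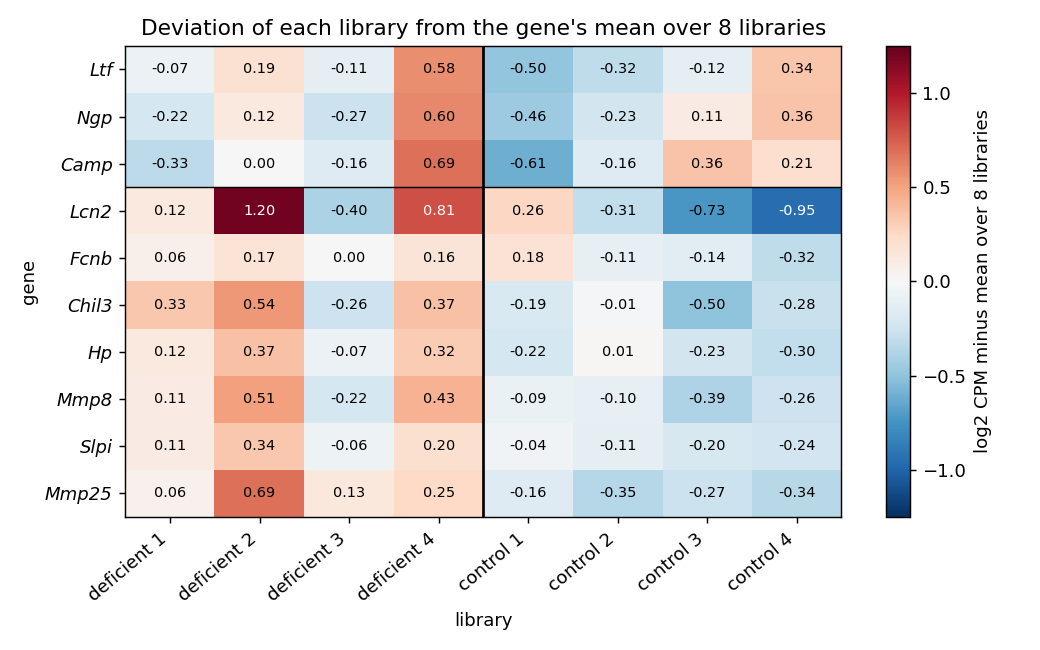
Deviation of each library from the gene's own mean over 8 libraries, in log2 CPM, with deficient libraries left of the vertical line and controls right of it. Ltf, Ngp and Camp, above the horizontal line, are high in deficient 4 and control 4, whereas the 7 genes below it are high in deficient 2 and 4 and below their means in control 4.

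Marker lists of other cell types moved with these orders in part. Whether their RNA came from such cells or from the sorted monocytes themselves was not tested. Neutrophil precursor markers other than the 10 genes, such as Elane and Mpo, were higher in 7 of 8 tested, with a median log2 fold change of 0.65. In edgeR 0 of them passed the threshold (5 at an unadjusted p under 0.05), and in DESeq2 3 did. They summed to 348, 472, 274 and 442 CPM in deficient 1 to 4 and to 286, 232, 209 and 161 CPM in control 1 to 4. Their highest libraries were deficient 2 and 4 and their lowest was control 4, as for Lcn2. Mature neutrophil markers (13 of 16 in the table) were higher in 7 of 12 tested, with a median log2 fold change of 0.40. In edgeR 0 of them passed the threshold (4 at an unadjusted p under 0.05), and in DESeq2 2 did. Their sum, which rests mostly on the most abundant genes, was 959 to 1071 CPM in deficient libraries and 982 to 1078 CPM in controls. The most abundant of them were Csf3r, the receptor of the granulocyte growth factor, Cd177, a surface protein of neutrophils, and S100a8, a calcium-binding alarmin, all of which monocytes also express. Csf3r had a log2 fold change of -0.06, Cd177 one of -0.43 and S100a8 one of 0.58, with adjusted p-values of 0.533, 0.180 and 0.258. Of the same list, Trem1, an activating receptor, had 1.13 (adjusted p = 0.106) and Il1r2, a decoy receptor of interleukin-1, had 0.73 (adjusted p = 0.129). Stfa2l1, Stfa3 and Mrgpra2b had no row in the table used here, and Ly6g had 0 counts in control 2, which allows up to 0.135 CPM.

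Retnlg and Chil1, named here after their values were seen, are low-level neutrophil genes that followed Ltf, Camp and Ngp rather than Lcn2 in control 4. Retnlg, a resistin-like protein, had 15, 21, 8 and 27 counts in deficient 1 to 4 and 19, 10, 10 and 47 in control 1 to 4. Chil1, a chitinase-like protein of secondary granules, had 6, 10, 4 and 21 counts in deficient 1 to 4 and 8, 5, 9 and 21 in control 1 to 4. By CPM, both were highest in library 4 of each group, Chil1 in the controls by little (0.681 CPM, against 0.632 CPM in control 3). Chil1, from the list of other late granule genes, did not pass the filter and was not tested. Other mature neutrophil markers went the other way. S100a8, S100a9 and Trem3 had their lowest values of all libraries in control 4, at 71.4, 62.0 and 17.0 CPM. Wfdc21 was at 0.422 CPM there, against 3.12 CPM in control 1. The part of such cells in the values of the 10 genes was not tested. Of other marker lists, those of erythroid cells (8 of 8 tested lower; 260 to 489 CPM in deficient libraries, 418 to 736 CPM in controls) and of B cells (9 of 9 lower; 413 to 473 CPM in deficient libraries, 454 to 623 CPM in controls) had 0 genes past the threshold in edgeR. At an unadjusted p under 0.05 edgeR gave 6 erythroid and 3 B cell genes, and DESeq2 called 0 and 1. Markers of eosinophils, basophils and mast cells were lower in 6 of 7 tested, with a median log2 fold change of -0.80, and summed to 9.30 to 13.1 CPM in deficient libraries and 10.9 to 29.8 CPM in controls. Of these, 0 passed in edgeR (3 at an unadjusted p under 0.05) and 0 in DESeq2. Markers of stem and progenitor cells were lower in 4 of 6 tested and those of macrophages in 5 of 8. In edgeR 0 of either list passed (2 and 0 at an unadjusted p under 0.05), and in DESeq2 1 and 0 did.

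**Figure D5:**
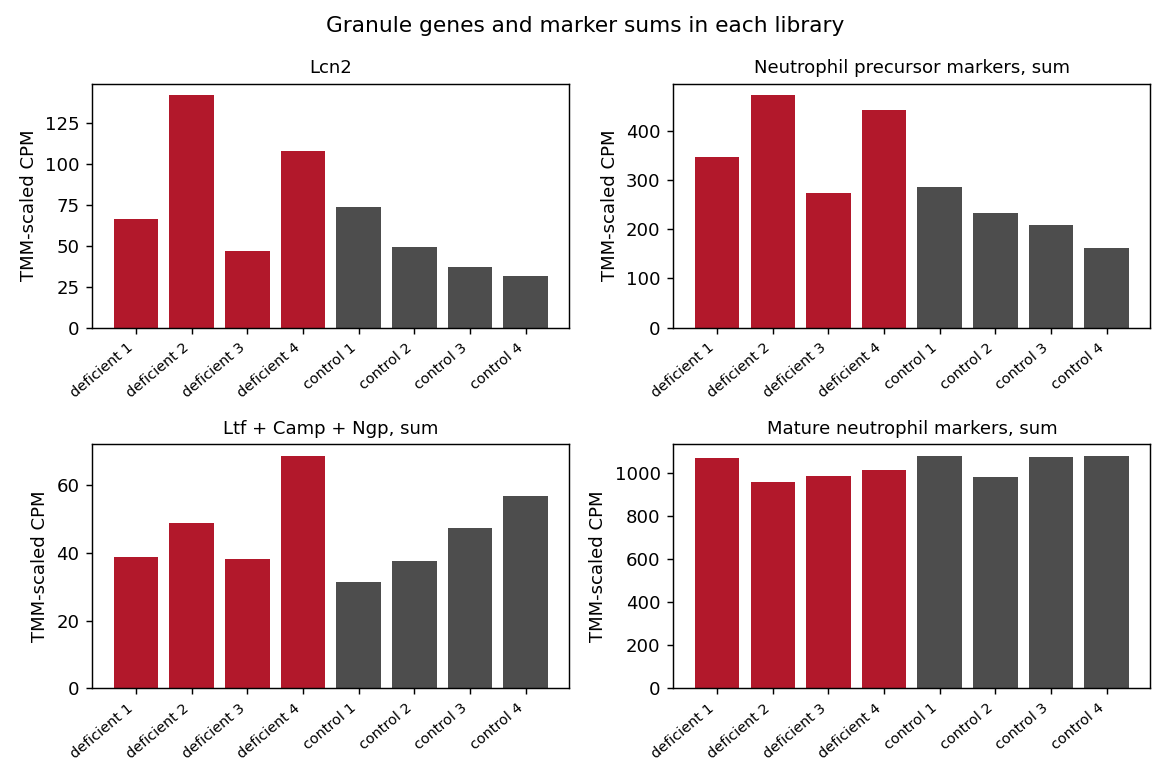
TMM-scaled CPM in each library of Lcn2, of the summed neutrophil precursor markers, of Ltf, Camp and Ngp together, and of the summed mature neutrophil markers, with deficient (red) left of control (grey). Lcn2 and the precursor markers are lowest in control 4, at 31.5 and 161 CPM, while Ltf, Camp and Ngp reach 56.7 CPM there.

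The remaining proteins of late granules were split in direction. Of 30 listed genes, 29 were in the table and 25 were tested, 14 higher and 11 lower, and the median of their log2 fold changes was 0.04. Only the 2 lysozyme genes passed in edgeR, while DESeq2 called 4 genes of the list higher and 1 lower. Lyz2 fell to 10379.6 ± 656 CPM in deficient libraries, against 21035 ± 1226 CPM in controls (SD, n = 4 each; adjusted p = 2.51e-06), and is the gene that carries the Cre insertion. Lyz1, its neighbour and paralog, rose to 84.2 ± 21.3 CPM, against 27.8 ± 5.18 CPM (SD, n = 4 each; adjusted p = 0.0428), and its value is uncertain because reads can match both genes. Primary granule genes, which precede those described here, were higher in 11 of 13 tested with a median of 0.45. Elane, Mpo, Prtn3, Ctsg, Prss57 and Ms4a3, named here as shared, are also on the list of neutrophil precursor markers. The counts of these lists are thus not independent. In edgeR 0 of them passed the threshold (9 at an unadjusted p under 0.05), and in DESeq2 5 did. Elane, neutrophil elastase, had a log2 fold change of 0.75 (adjusted p = 0.0654) and Mpo, myeloperoxidase, one of 0.82 (adjusted p = 0.0736).

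Among 14 tested genes listed as regulators of late granule genes, 1 rose and 1 fell in edgeR, and DESeq2 called 3 higher and 1 lower. The list was chosen with earlier results of these data known, so these calls are not independent evidence. Stat3, which acts downstream of the granulocyte growth factor receptor, rose to 381 ± 16.8 CPM in deficient libraries, against 313 ± 26.9 CPM in controls (SD, n = 4 each; log2 fold change 0.28, adjusted p = 0.0488). In edgeR 0 genes passed as higher without deficient 4, without control 1 or without control 3. The calls of Stat3, of Lyz1 above and of Hmox1 below were thus lost in each of these fits. Satb1, a chromatin organiser, fell to 12.5 ± 0.510 CPM in deficient libraries, against 16.6 ± 0.755 CPM in controls (log2 fold change -0.41, adjusted p = 0.0292). Without control 1, and likewise without the shallowest library of each group, 1 gene passed as lower in edgeR. The calls of Satb1, Commd10 and Lyz2 thus cannot all have held in those fits. Cebpe, named here for its role in these genes and not by the rule, was at 12.6 ± 1.67 CPM in deficient libraries and 11.4 ± 1.23 CPM in controls (SD, n = 4 each; adjusted p = 0.468). The median over the list was 0.08.

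Of 18 tested genes of granule packaging and release, 0 passed in edgeR and 0 in DESeq2, and the median log2 fold change was 0.02. An unadjusted p under 0.05 in edgeR was reached by 5 of the 18, beside 3100 of all 12938 genes in either direction. Lamp2, a granule and lysosome membrane protein, had 0.18 (adjusted p = 0.105) and Unc13d, a priming factor of exocytosis, -0.18 (adjusted p = 0.111). Of the 8 tested partners in iron handling, 4 were higher and 4 lower, with a median of -0.14. Hmox1, the enzyme that degrades haem, rose to 142 ± 15.2 CPM in deficient libraries, against 112 ± 3.66 CPM in controls (SD, n = 4 each; log2 fold change 0.34, adjusted p = 0.0465), and Slc40a1, the iron exporter, had a log2 fold change of -0.63 (adjusted p = 0.153) at 0.942 ± 0.121 CPM in deficient libraries and 1.43 ± 0.475 CPM in controls.

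The genes outside the 10 whose values over the 8 libraries lay nearest to the median profile of the 10 were Ctsc, Tspo, Adam9, Fkbp5, Mettl1 and Flot1, among tested genes with a mean of at least 5 CPM. Their mean absolute difference from that profile was 0.0351 (Ctsc) to 0.0536 (Flot1) on the log2 scale. Ctsc encodes cathepsin C, the protease that activates the serine proteases of primary granules, and was at 1381 ± 271 CPM in deficient libraries and 1013 ± 42.8 CPM in controls (SD, n = 4 each; log2 fold change 0.45, adjusted p = 0.107). Of the 10 genes themselves, Hp, Slpi and Mmp8 were nearest to their median profile (0.0557, 0.0649 and 0.0758), and Lcn2 (0.421) and Camp (0.324) were farthest.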

How the data were processed

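Per the labels' protocols, libraries of polyadenylated RNA were read from 1 end on a NextSeq. The deposited table holds raw counts, according to its header. The submitters' processing notes name GRCm38, cutadapt, STAR 2.7.3a, HTSeq 0.12.4 and DESeq2, with no roles. The sources used here do not say whether counting used strand. The table lists genes whose highest count is at least 6. The Cre row was left out of library sizes and tests (499 to 987 counts), and 8 columns of normalized values were not used.

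Counts were filtered (filterByExpr, minimum count 10, minimum total 15), scaled by TMM and fitted with edgeR 4.0.16 (R 4.3.3), robust quasi-likelihood, genotype as the only term; DESeq2 1.42.0 was an alternative. A two-sided p under 0.05 after Benjamini-Hochberg adjustment over 12938 genes was the threshold. SEs come from the F statistic. On simulated data with known changes the fit recovered most genes given the larger of the planted changes. Most of the 10 genes had fold changes below even the smaller planted change, so recovery at their size was not tested. The share of false calls was above the nominal threshold, so adjusted p-values just under it are less firm than they read. Libraries of a group differed by more than counting noise (chi-square 2.88 to 23.4 per degree of freedom). A count of 0 allows up to 3 counts. Such limits cover counting error only. Coordinates and transcript lengths are GENCODE M21's, promoters RefSeq's.

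The 10 genes and the lists were chosen with earlier results of these data known. The text names the 10 genes, of each list of related genes up to 4 past the threshold or else the 2 with the smallest p, the 3 most abundant mature neutrophil markers, Ly6g, Kit, Commd10, Lyz2 and the 6 nearest profiles (log2 of CPM plus 0.5). Other names are said to be chosen otherwise or are examples.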

Additional observations from a re-analysis of the deposited data

Results flagged for a closer look

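Kit in control 2 lay apart from the other controls: it was at 0.135 CPM there, which stands for 3 counts, and at 0.260 to 0.281 CPM in the other 3. Of 64 sets of 4 libraries examined, this was the only one with such a gap, and chance gives about 1 in 20.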

How the results depend on the processing

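All 10 genes kept a fold change above 1 under the other scalings, no filter on low counts, DESeq2 and the non-robust fit; of the 14 alternatives, the exceptions were without deficient 4, where Camp (-0.15) and Ngp (-0.087) were lower, and without control 1, where Camp was (-0.03). This count under alternatives was added after seeing the data. The median log2 fold change of the 10 ranged from 0.31 to 0.42 with 1 library left out. Gene by gene that range was 0.13 to 0.52 for Ltf, 0.63 to 1.22 for Lcn2, 0.12 to 0.29 for Fcnb, 0.41 to 0.65 for Chil3, 0.31 to 0.46 for Hp, 0.33 to 0.56 for Mmp8, 0.48 to 0.75 for Mmp25, 0.23 to 0.36 for Slpi, -0.15 to 0.29 for Camp and -0.087 to 0.30 for Ngp. Under DESeq2, Hp (0.38), Mmp25 (0.66) and Slpi (0.30) were past the threshold. Over all genes, the number past the threshold (113, of them 46 higher) was 843 with DESeq2 (395 higher), 41 with the non-robust fit (20 higher), 1 without the shallowest library of each group (0 higher) and 1 to 522 with 1 library left out (0 to 225 higher). The lowest count came without control 1, the highest without deficient 1; why was not tested. Counting error weighs most on Camp (76 to 252 counts in deficient libraries, 80 to 182 in controls) and Mmp25 (79 to 212 in deficient libraries, 48 to 98 in controls). No paired analysis was possible because the labels give no replicate number shared by the groups.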
